A study of Mus musculus with 6 samples.

Results

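The BCL2 family decides, at the outer membrane of the mitochondrion, whether a stressed cell survives or dies by apoptosis. The genes described here were the rows of the deposited count table that carry one of 10 given symbols, 10 of 54532 rows. By the roles of their proteins they fall into 4 pro-survival guards (Bcl2, Bcl2l1, Bcl2l2 and Mcl1), the pore-forming effector Bak1 and 5 BH3-only genes (Bad, Bid, Bik, Bmf and Bcl2l11). Counts came from 6 RNA-seq libraries of AML12, a line grown from mouse hepatocytes, labelled WT by the submitters and treated for 24 h. Of these, 3 were labelled PA/OA (400 nM and 800 nM as the submitters write it) and 3 were labelled PP (250 µg/ml). Whether the PP cells also received PA/OA is not clear from the labels or the design text, and none of the 6 libraries was labelled as untreated control cells. The labels do not name separate cultures, so each p-value rests on how far these libraries differ among themselves, perhaps for technical reasons only.

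Guards hold the pore formers BAK and BAX in check, and BH3-only proteins, which respond to particular stresses, bind the guards or activate the pore formers directly. An open pore releases cytochrome c, which assembles with APAF1 and caspase 9 into the apoptosome. Hepatocytes are known to rely on BCL-XL, the product of Bcl2l1, and on MCL1, a guard protein with a short life. BIM, the product of Bcl2l11, is known as a FOXO target, and FOXO factors bind the core GTAAACA.

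Mcl1 and Bcl2l11 had the largest rises among the members, so the 250 bases before their annotated start are shown as the DNA next to those transcripts. Both are on the plus strand and come from RefSeq on build GRCm38.p6, in the window nearest the 5′ end of the gene in the deposited table. The Mcl1 window is chr3:95658471.0-95658720.0 and the Bcl2l11 window is chr2:128125788.0-128126037.0. Capitals mark matches to any of 6 motifs searched on both strands.
Mcl1: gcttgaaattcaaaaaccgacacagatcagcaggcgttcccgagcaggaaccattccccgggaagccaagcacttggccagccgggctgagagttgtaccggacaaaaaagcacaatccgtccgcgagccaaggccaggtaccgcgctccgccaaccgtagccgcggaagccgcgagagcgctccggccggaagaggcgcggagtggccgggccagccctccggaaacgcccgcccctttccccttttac
Bcl2l11: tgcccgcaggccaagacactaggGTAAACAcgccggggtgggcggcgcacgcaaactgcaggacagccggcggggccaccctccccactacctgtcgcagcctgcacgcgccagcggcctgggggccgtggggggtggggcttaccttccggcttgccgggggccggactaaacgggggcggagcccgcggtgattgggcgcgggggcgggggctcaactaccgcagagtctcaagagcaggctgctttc
The single match in these windows was GTAAACA in Bcl2l11, 220 bases before the start. The motifs were GTAAACA (FOXO), CACGTG (E-box), TGACGTCA (CRE), TGANTCA (AP-1), TTCNNNGAA (STAT) and ACGTG (HIF core, part of every CACGTG). Among 27025 promoters of the same length, 1 a gene, 3.06% held GTAAACA, 6.04% CACGTG, 1.6% TGACGTCA, 6.85% TGANTCA, 7.14% TTCNNNGAA and 16.5% ACGTG. Windows were found for 9 of the 10 members, and the other 7 held none of these letters. A match is a description of the letters, not of a bound site.

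Cells labelled PP held more mRNA of 3 of the 4 guards, Mcl1, Bcl2l1 and Bcl2l2, and of Bcl2l11, and less of Bcl2 and Bad. Mcl1 rose 3.38-fold, Bcl2l11 1.97-fold, Bcl2l1 1.56-fold and Bcl2l2 1.42-fold, while Bcl2 fell 1.67-fold and Bad 1.23-fold. Bak1, Bid and Bmf did not pass the test, and Bik held 3 counts in all and was not tested. These 4 higher and 2 lower calls among 9 members tested (66.7%) stand beside 75.0% of all 15718 genes tested (35.1% higher and 39.9% lower; edgeR's quasi-likelihood test, adjusted p under 0.05), so the share of members called was not above the background. The 3 libraries of PP did not overlap the 3 of PA/OA for the same 6 members, and for 77.4% of all genes tested (36.1% above and 41.3% below). Mcl1 was the 1 member called with at least a 2-fold change, where 36.6% of all genes tested were. The median log2 fold change was 0.18 over the 9 members and -0.09 over all genes tested with TMM. These medians were -0.25 and -0.52 by library size alone, -0.058 and -0.32 with upper-quartile scaling, and 0.0087 and 0.0086 once a trend of fold changes with abundance was removed, so the sign turned and in the last setting the members' median did not stand apart. In bulk RNA, fewer cells of a type and less RNA per cell cannot be told apart.

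**Figure D1:**
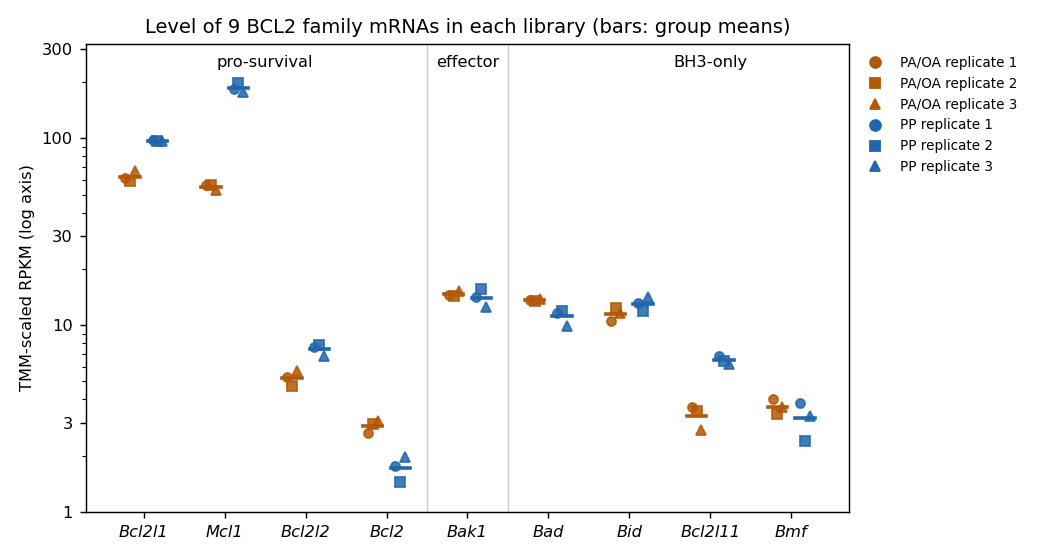
Level of 9 members in each library, in RPKM after TMM scaling (log axis), PA/OA in orange and PP in blue, marker shape for the replicate and bars for the means of 3 libraries. Mcl1 lies between 52.8 and 56.4 in PA/OA and between 178 and 198 in PP; the groups overlap for Bak1, Bid and Bmf. Bik, at or near 0, is not drawn.

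Levels are given in RPKM, which is CPM (counts relative to the TMM-scaled library size) for each kilobase of gene length in the deposited table, so that genes can be set side by side. Mcl1 (chromosome 3, 95658788 to 95663176, build mm10, plus strand) encodes the short-lived guard. Its level was 56.4, 56.3 and 52.8 RPKM in PA/OA replicates 1 to 3 and 184, 198 and 178 RPKM in PP replicates 1 to 3. All 3 PP libraries lay far above all 3 PA/OA libraries. The log2 fold change was 1.76 ± 0.06 (SE; adjusted p = 4.95e-17, edgeR). In size it exceeded that of 81.8% of the genes tested.

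Bcl2l1 (chromosome 2, 152780668 to 152831728, minus strand) encodes BCL-XL and, by alternative splicing, a shorter form that favours death, which gene counts do not separate. Its level was 61.1, 59.3 and 66.6 RPKM in PA/OA and 97.8, 97.3 and 96.3 RPKM in PP. The PP libraries were close together and above every PA/OA library. The log2 fold change was 0.64 ± 0.05 (SE; adjusted p = 5.63e-10, edgeR), 0.20 with scaling to library size alone (adjusted p = 0.00169, edgeR) and 0.09 once a trend of fold changes with abundance was removed (adjusted p = 0.129, edgeR). The call of Bcl2l1 was thus lost in this last setting, which was added after the values had been seen. Mcl1 still had a log2 fold change of 1.21 there.

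Bcl2l2 (chromosome 14, 54883377 to 54888234, plus strand) encodes the guard BCL-W. It stood at 5.28, 4.70 and 5.71 RPKM in PA/OA and 7.64, 7.86 and 6.86 RPKM in PP, without overlap. That is a log2 fold change of 0.51 ± 0.09 (SE; adjusted p = 4.05e-05, edgeR). By library size alone it was 0.07 and was not called (adjusted p = 0.476, edgeR). The gene model Gm20521 shares 594 exon bases with Bcl2l2 on the same strand (13.3%), and it held 0 counts in all 6 libraries. These 0 counts do not show how reads over the shared bases were assigned, so the count of Bcl2l2 is uncertain.

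Bcl2 (chromosome 1, 106538178 to 106714274, minus strand), the founding guard of the family, went the other way. Its level was 2.65, 2.95 and 3.05 RPKM in PA/OA and 1.77, 1.44 and 1.97 RPKM in PP. Every PP library lay below every PA/OA library. Its log2 fold change was -0.74 ± 0.11 (SE; adjusted p = 3.88e-06, edgeR), and it ran from -0.83 to -0.60 when single libraries were left out. Per kilobase, Bcl2 was the least abundant guard in both groups.

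Bak1 (chromosome 17, 27019810 to 27029009, minus strand) encodes the pore former BAK, which sits in the outer mitochondrial membrane. Its level was 14.5, 14.3 and 15.3 RPKM in PA/OA and 14.1, 15.5 and 12.5 RPKM in PP. The groups overlapped, with the highest and the lowest value both in PP. Its log2 fold change was -0.07 ± 0.09 (SE; adjusted p = 0.477, edgeR). By library size alone it was called lower (-0.50, adjusted p = 1.95e-05, edgeR), as it was with upper-quartile scaling (-0.31, adjusted p = 0.00302, edgeR).

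Among the BH3-only genes, Bcl2l11 (chromosome 2, 128126038 to 128162547, plus strand) encodes BIM, which binds all guards. It stood at 3.66, 3.45 and 2.73 RPKM in PA/OA and 6.83, 6.46 and 6.20 RPKM in PP. The groups did not overlap, and PA/OA replicate 3 was the lowest library. In log2 terms PP was higher by 0.98 ± 0.09 (SE; adjusted p = 3.36e-09, edgeR), and over all libraries left out in turn the value ran from 0.87 to 1.07.

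Bad (chromosome 19, 6941861 to 6951898, plus strand) encodes a BH3-only protein that growth factor and survival kinases hold inactive by phosphorylation. Its level was 13.7, 13.4 and 13.8 RPKM in PA/OA and 11.7, 11.9 and 9.84 RPKM in PP. The PA/OA libraries were close together, and PP replicate 3 was lowest. This gave a log2 fold change of -0.29 ± 0.09 (SE; adjusted p = 0.00751, edgeR). Without PP replicate 3 it was -0.19 and was not called (adjusted p = 0.0982, edgeR).

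Bid (chromosome 6, 120891930 to 120916853, minus strand) encodes the protein that caspase 8 cleaves to carry a death receptor signal to mitochondria. Its level was 10.5, 12.4 and 11.7 RPKM in PA/OA and 13.2, 11.8 and 14.1 RPKM in PP, with overlap. The log2 fold change was 0.18 ± 0.08 (SE; adjusted p = 0.0554, edgeR). It was called higher without PA/OA replicate 2 (0.24, adjusted p = 0.0195, edgeR) or PP replicate 2 (0.26, adjusted p = 0.0108, edgeR), and by library size alone it was called lower (-0.25, adjusted p = 0.00932, edgeR).

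Bmf (chromosome 2, 118528757 to 118549687, minus strand) encodes a BH3-only protein tied to the cytoskeleton. It stood at 4.01, 3.35 and 3.63 RPKM in PA/OA and 3.82, 2.39 and 3.28 RPKM in PP. PP replicate 2 was the lowest library, and the groups overlapped. The log2 fold change was -0.22 ± 0.13 (SE; adjusted p = 0.148, edgeR), and -0.35 without PP replicate 1, where it was called (adjusted p = 0.0259, edgeR). It was also called lower by library size alone (-0.65), with upper-quartile scaling (-0.45) and among protein-coding genes alone (-0.30).

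Bik (chromosome 15, 83526862 to 83544634, plus strand), a BH3-only gene whose protein sits in the endoplasmic reticulum, was near 0. It held 2, 0 and 1 counts in PA/OA replicates 1 to 3 and 0 counts in each PP library. A count of 0 over the PP libraries allows up to 0.0327 CPM, from 3 counts over the group (counting error only). If both mates of a pair were counted, this limit would be higher. Expression of Bik was not detectable in PP at this depth.

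Exons of other genes lie over Bcl2 (D630008O14Rik, 558 bases, 6.09%), Bak1 (Ggnbp1, 614 bases, 25.5%), Bad (Gpr137, 524 bases, 20.5%) and Bid (Bcl2l13, 628 bases, 17.7%), all on the opposite strand in GENCODE M21. No use of strand is given, so these 4 counts are uncertain, as is that of Bcl2l2 for its overlap on the same strand. For Bad the share is of 2558 exon bases in GENCODE M21, where the deposited gene length is 2007 bases. Bcl2l13 held 3388 to 3694 counts in PA/OA and 4550 to 5146 in PP, more than Bid in every library, and Gpr137 held 656 to 692 and 790 to 1017. Ggnbp1 held at most 93 counts and D630008O14Rik at most 16. Mcl1, Bcl2l1, Bcl2l11 and Bmf shared no exon base with another gene.

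**Figure D2:**
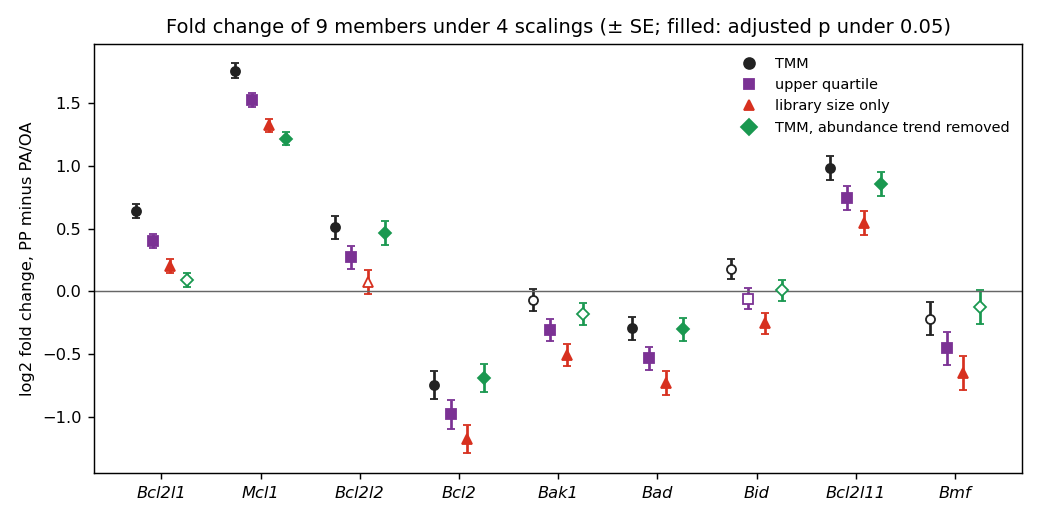
Log2 fold change of 9 members (PP minus PA/OA, ± SE from the fit) under 4 scalings: TMM, upper quartile, library size alone, and TMM after removal of the abundance trend; filled markers passed at an adjusted p under 0.05. Mcl1 runs from 1.21 to 1.76 and Bcl2l11 from 0.55 to 0.98, and both are filled throughout, as is Bcl2 below 0.

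How libraries were scaled moved the size and the call of the smaller differences, and for Bid the direction. Against TMM, the median log2 fold change over all genes fell by 0.43 when only library size was used and by 0.24 with upper-quartile scaling. Mcl1, Bcl2l1 and Bcl2l11 were called higher and Bcl2 and Bad lower under all 3 of these scalings. Scaling to library size alone gave 3 members higher and 5 lower, where 77.3% of all genes were called, and upper-quartile scaling gave 4 and 4, where 75.9% were. The other settings named above called 71.1% of all genes (abundance trend removed) and 78.4% (protein-coding genes alone), and a fit with the replicate number as a block called 73.3%, with 4 members higher and 2 lower. Leaving out PA/OA replicate 1, 2 or 3 left 70.2%, 71.2% and 71.0% of all genes called, and leaving out PP replicate 1, 2 or 3 left 71.6%, 70.9% and 71.4%.

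The order of the members by level changed at the top. Bcl2l1 was the most abundant member per kilobase in PA/OA, at 62.3 ± 3.80 RPKM (SD, n = 3), ahead of Mcl1 at 55.2 ± 2.03 RPKM. In PP, Mcl1 came first at 187 ± 10.2 RPKM and Bcl2l1 second at 97.2 ± 0.763 RPKM. These neighbours did not overlap in either group. Below them, PA/OA had Bak1 (14.7 ± 0.509 RPKM), Bad (13.6 ± 0.191), Bid (11.5 ± 0.954), Bcl2l2 (5.23 ± 0.505), Bmf (3.66 ± 0.330), Bcl2l11 (3.28 ± 0.486), Bcl2 (2.88 ± 0.209) and Bik. There the libraries of Bmf overlapped those of Bcl2l11, and those of Bcl2l11 overlapped those of Bcl2. In PP, Bak1 (14.0 ± 1.52 RPKM), Bid (13.0 ± 1.15) and Bad (11.1 ± 1.13) followed, where Bid overlapped both of the others. After them came Bcl2l2 (7.45 ± 0.523 RPKM), Bcl2l11 (6.50 ± 0.317), Bmf (3.16 ± 0.722), Bcl2 (1.73 ± 0.270) and Bik.

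Ratios of reads per kilobase between members of one library do not change with a factor applied to the whole library, as TMM, upper-quartile and library-size scaling are. Removal of the abundance trend moves genes unequally, and it left log2 fold changes of 1.21 for Mcl1, 0.09 for Bcl2l1 and 0.85 for Bcl2l11, against 1.76, 0.64 and 0.98, so these differences depend on that setting. The ratio of Mcl1 to Bcl2l1 was 0.923, 0.949 and 0.793 in PA/OA and 1.88, 2.03 and 1.85 in PP. Bcl2l1 thus exceeded Mcl1 in all 3 PA/OA libraries and Mcl1 exceeded Bcl2l1 in all 3 PP libraries. The ratio of Mcl1 to Bcl2l11 was 15.4, 16.3 and 19.3 in PA/OA and 27.0, 30.7 and 28.7 in PP, a log2 difference of 0.76. That of Bcl2l1 to Bcl2l11 was 16.7, 17.2 and 24.4 in PA/OA and 14.3, 15.1 and 15.5 in PP, a log2 difference of -0.35, or -0.18 without PA/OA replicate 3. Only these last 2 ratios were tested. For each the exact two-sided permutation test gave p = 0.1, also after Benjamini-Hochberg adjustment over both, which is the smallest that 3 against 3 libraries allow.

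Relative to Bcl2l11, then, Mcl1 mRNA was higher in every PP library and Bcl2l1 mRNA lower. Bcl2 to Bcl2l11 went from 0.724, 0.856 and 1.12 in PA/OA to 0.259, 0.223 and 0.318 in PP. The ratio of the 4 summed guards to the 5 summed BH3-only members was 3.93, 3.78 and 4.02 in PA/OA and 8.21, 9.34 and 8.46 in PP. It holds for the members only. Pmaip1 and Bbc3, BH3-only genes outside the members, are not in the sum, and both were called higher with TMM. Their means were 19.9 and 15.6 RPKM in PA/OA and 101 and 22.9 RPKM in PP. By library size alone Bbc3 was not called. Pmaip1 alone, at 101 RPKM in PP, exceeded every BH3-only member there, of which Bid was the highest at 13.0 RPKM. The rise of the ratio is thus tied to which genes are summed, and it is not shown for BH3-only genes as a class. The ratio with Pmaip1 and Bbc3 included was not computed. The sum of the guards is made up mostly of Bcl2l1 and Mcl1, and mRNA ratios are not ratios of proteins.

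**Figure D3:**
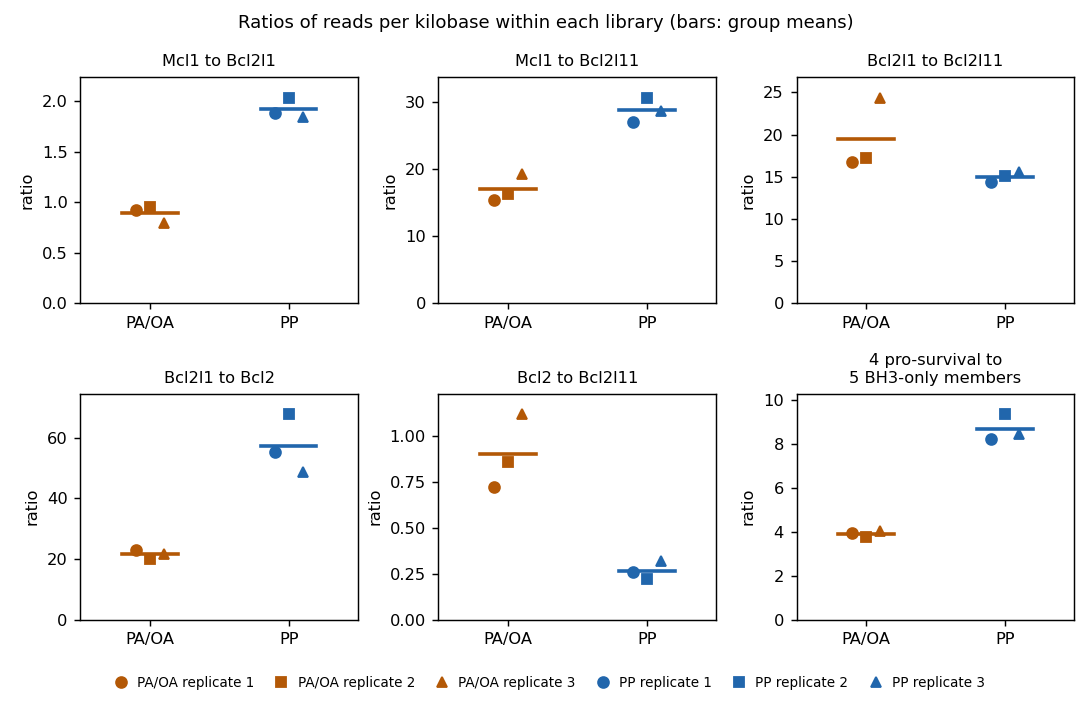
Ratios of reads per kilobase between members within each library (linear axes from 0), PA/OA in orange and PP in blue, bars for the means of 3 libraries. The groups are apart in all 6 panels, and Mcl1 to Bcl2l1 lies below 1 in PA/OA and above 1.8 in PP. The panel of summed guards to summed BH3-only members leaves out Pmaip1 and Bbc3.

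The make-up of each class moved with them. Mcl1 made up 45.0%, 45.7% and 41.2% of the guards' reads per kilobase in PA/OA and 63.2%, 65.0% and 62.8% in PP. The share of Bcl2l1 went from 49.6 ± 2.06% to 33.2 ± 1.09% (SD, n = 3) although its level rose. Bcl2l2 went from 4.16 ± 0.323% to 2.54 ± 0.104%, and Bcl2 from 2.30 ± 0.159% to 0.592 ± 0.113%. Within the BH3-only members, Bcl2l11 went from 10.2 ± 1.48% to 19.2 ± 0.634% and Bad from 42.5 ± 1.14% to 32.9 ± 3.56%. The shares of Bid (35.8 ± 2.62% and 38.6 ± 3.21%) and Bmf (11.4 ± 1.15% and 9.30 ± 1.77%) overlapped between the groups.

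**Figure D4:**
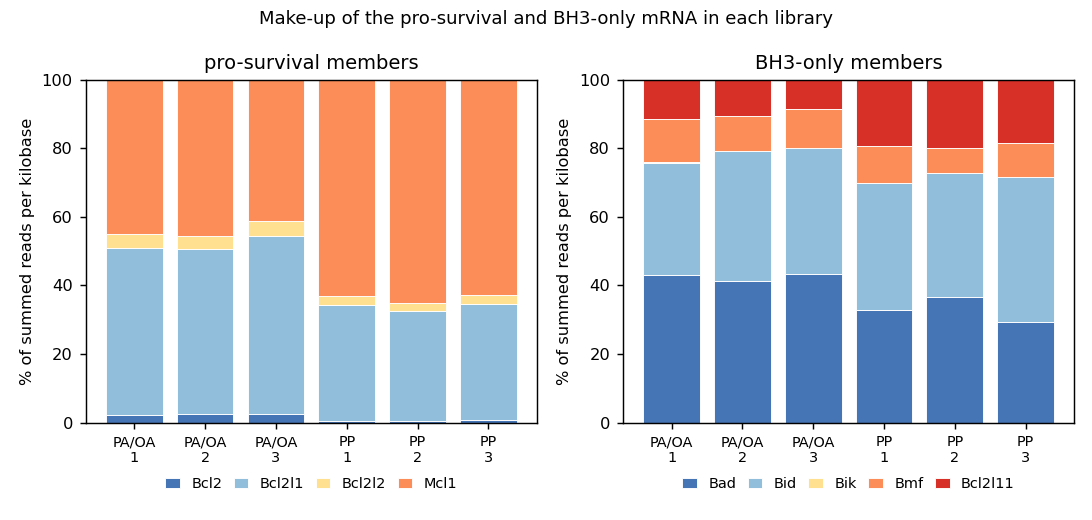
Share of each member in the summed reads per kilobase of the 4 pro-survival members (left) and the 5 BH3-only members (right), 1 bar a library. Mcl1 takes 41.2% to 45.7% on the left in PA/OA and 62.8% to 65.0% in PP; Bik is too low to see.

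Other genes of the pathway were read from lists written with earlier results of these data known, with up to 4 genes of smallest p named from each and levels in CPM (mean ± SD, n = 3). Of the tested genes, 75.0% to 100% passed in each of these 6 lists, beside 75.0% of all genes. Of 17 further BCL2 family and related genes, 10 were tested, of which 6 were higher, 3 lower (Bcl2l10, under 1 CPM in every library, Bcl2l12 and Becn1) and 1 not called, with a median log2 fold change of 0.62. Pmaip1, which encodes the BH3-only protein NOXA, a binder of MCL1, rose 5.06-fold from 52.7 ± 7.49 to 267 ± 2.79 CPM (adjusted p = 4.83e-17, edgeR). Bax, the partner pore former of Bak1, rose 2.16-fold from 47.0 ± 2.50 to 102 ± 8.10 CPM (adjusted p = 3.31e-12, edgeR). Bnip3 and Bnip3l, whose products act in the removal of mitochondria, rose 5.14-fold and 3.58-fold. The 4 Bcl2a1 genes, Hrk, Bcl2l14 and Bcl2l15 were under 1 CPM and were not tested.

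Of 9 genes of the outer mitochondrial membrane and of factors released through it, 5 were higher, 2 lower (Htra2 and Cycs) and 2 not called, with a median of 0.27. The channel genes Vdac1 and Vdac2 rose 2.54-fold and 2.36-fold, to 753 ± 41.4 and 327 ± 17.8 CPM, and Vdac3 rose 1.29-fold (log2 0.37; -0.07 and not called by library size alone). Htra2, which encodes a released protease, fell 2.52-fold from 52.7 ± 4.90 to 20.9 ± 0.804 CPM. The call of Cycs, the cytochrome c gene (-0.15), was lost without any 1 of 5 of the 6 libraries, and by library size alone this list had 3 higher and 5 lower.

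Of 7 tested apoptosome and caspase genes, 4 were higher, 2 lower (Casp8 and Casp12) and 1 not called, with a median of 0.58. Apaf1 rose 2.31-fold from 29.2 ± 1.07 to 67.5 ± 0.572 CPM, and Casp9 2.11-fold from 15.8 ± 1.12 to 33.5 ± 2.25 CPM. Casp8, the initiator that acts below death receptors and cleaves BID, fell 1.86-fold from 73.0 ± 2.32 to 39.3 ± 1.58 CPM. Of 8 death receptor pathway genes, 2 were higher, 4 lower (Fadd, Ripk1, Cflar and Traf2) and 2 not called, with a median of -0.11. The adaptor gene Fadd fell 2.36-fold and the kinase gene Ripk1 1.51-fold, while the receptor genes Tnfrsf10b and Tnfrsf1a rose 1.60-fold and 1.39-fold, the latter not called with library size only. The call of Traf2 was lost without any 1 of 5 libraries.

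Of 5 inhibitor of apoptosis genes, 3 fell (Birc6, Birc3 and Xiap) and 2 rose (Birc2 and Birc5), with a median of -0.25. Birc3 fell 2.73-fold from 10.8 ± 2.17 to 3.96 ± 0.536 CPM and Birc6 1.63-fold, and the rises of Birc2 (log2 0.41) and Birc5 (log2 0.40) were not called with upper-quartile scaling or by library size alone, where both were just below 0 (-0.03 and -0.04). Of 16 genes whose products handle BCL2 family proteins, 10 were higher, 5 lower (Huwe1, Usp9x, Fbxw7, Dynll1 and Ywhaz) and 1 not called, with a median of 0.44. The PIM kinase genes led them. PIM kinases are known to phosphorylate BAD. Pim1 rose 18.4-fold from 10.6 ± 0.738 to 195 ± 5.22 CPM, Pim3 4.80-fold and Pim2 4.03-fold. Huwe1 and Fbxw7, which encode parts of ubiquitin ligases that mark MCL1 for destruction, fell by 0.65 and 0.69 on the log2 scale. Usp9x, whose product removes ubiquitin from MCL1, fell by 0.16, a call lost without PA/OA replicate 2, PP replicate 1 or PP replicate 2. The ligase gene Btrc had a log2 fold change of 0.068 and was not called. With library size only, 6 genes of this list were higher. Exons of other genes lie over Becn1 (43.9%), Htra2 (43.7%), Bcl2l12 (33.4%), Bnip3 (22.3%), Pim1 (14.5%), Bax (12.2%), Ripk1 (9.01%) and Fadd (6.12%). They also lie over 0.323% to 2.37% of Vdac2, Casp9, Birc6 and Huwe1, so the counts of all these genes are uncertain too. Shares are of GENCODE M21 exons, which for Pim1 (3362 bases) and Birc6 (25772 bases) differ from the deposited lengths (2638 and 28830 bases).

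**Figure D5:**
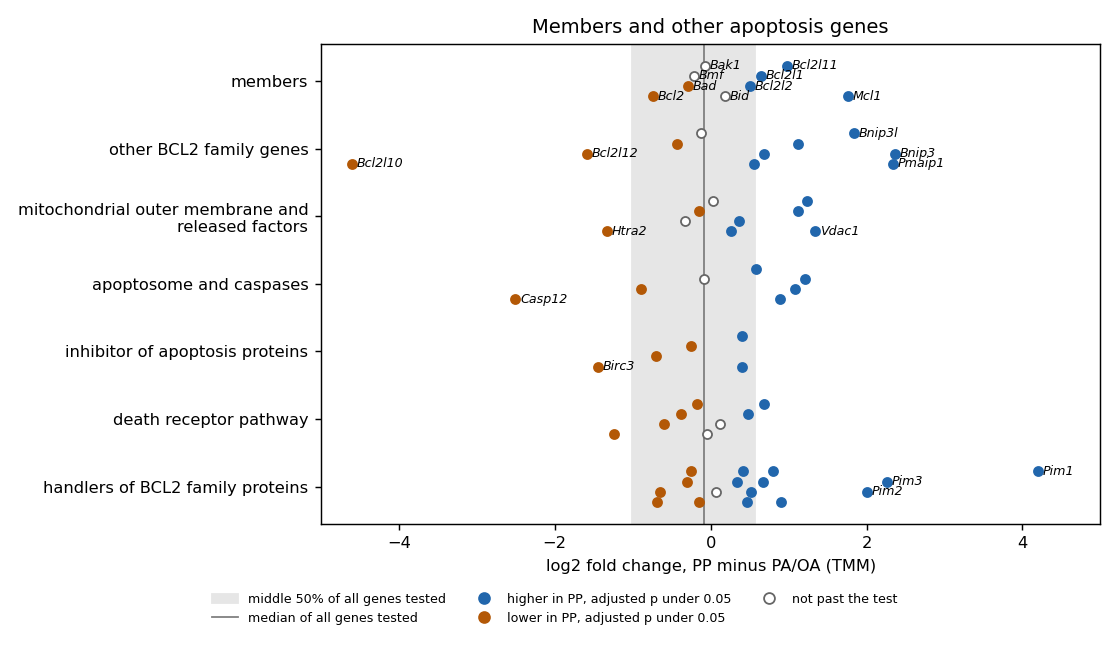
Log2 fold change (PP minus PA/OA, TMM) of the members and of 6 lists of other apoptosis genes, 1 point a gene, blue higher and orange lower at an adjusted p under 0.05, open not called; the band holds the middle 50% of all genes tested. Mcl1 (1.76), Pmaip1 (2.34), Bnip3 (2.36) and Pim1 (4.20) lie above the band, and Htra2 (-1.34) and Birc3 (-1.45) below it.

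Markers of the labelled cell type were uneven. Of 9 hepatocyte markers found, 7 were tested, of which 2 were higher, 3 lower (Apob, Hnf4a and Alb) and 2 not called. Apob stood at 245 ± 5.93 CPM in PA/OA and 75.7 ± 9.68 CPM in PP, 3.24-fold lower (adjusted p = 3.12e-15, edgeR). Krt18 stood at 974 ± 12.2 CPM in PA/OA and 1729 ± 93.7 CPM in PP, and Hnf4a at 71.6 ± 5.06 and 26.8 ± 1.54 CPM. Alb stood at 12.2 ± 1.36 and 9.90 ± 1.38 CPM with overlap, and Apoa2 was at 0 in every library. The call of Alb (adjusted p = 0.0489, edgeR) was lost in 8 settings, among them DESeq2 and the replicate block. Krt8, called higher with TMM (log2 0.17), was called lower by library size alone (-0.27) and with the abundance trend removed (-0.63). Of 5 bile duct markers found, 3 were tested and all 3 were higher, with Epcam and Cftr at 0. Krt19 stood at 2008 ± 60.3 and 3511 ± 206 CPM, Krt7 at 351 ± 15.4 and 441 ± 15.4 CPM, and Spp1 at 88.1 ± 6.60 and 227 ± 14.7 CPM. With the abundance trend removed Krt19 was not called (log2 -0.04), Krt7 was lower (-0.24) and Spp1 stayed higher (0.96). Macrophage and leukocyte markers summed to 3.13 to 3.78 CPM in PA/OA and 26.5 to 29.5 CPM in PP, of which Cd68 made up most, while Adgre1 and Clec4f were at 0; 1 of the 2 tested was called. Stellate and endothelial markers summed to at most 2.40 and 1.50 CPM in any library. The part of these differences in the members' results was not tested. Library totals ran from 24113169 to 32560589 counts.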

How the data were processed

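The authors deposited raw counts per gene, 1 column a library, with symbols, coordinates and gene lengths. The submitters' processing notes name featureCounts, build mm10 and DESeq2 1.16.1, with no roles. Not given in the sources used here: aligner, annotation, strand setting. Among genes with 1 to 20 counts, 57.1% to 61.5% were even, as when both mates of a pair are counted, so intervals cover counting error only.

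Groups came from the treatment labels. In R 4.3.3, edgeR 4.0.16 was run on all genes (filterByExpr, TMM, two-sided quasi-likelihood F-test, Benjamini-Hochberg adjustment over 15718 genes, threshold 0.05). Log2 fold changes are PP minus PA/OA, and the SE was taken from the fold change and F. RPKM used effective library sizes and the deposited gene length, which equals the union of GENCODE M21 exons for every member but Bad. The test was checked on simulated data in which only a small part of the genes differed. That check does not cover data where 75.0% of genes are called, nor the choice of scaling. The members and lists were chosen with earlier results of these data known. All 10 members are named, with up to 4 called genes of smallest p from each list above 1 CPM. Others, where few went lower or where they limit a result, were named after their values were seen. One gene that this rule would name is not reported here.

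Alternatives were DESeq2 1.42.0, limma-voom (limma 3.58.1), a replicate block, protein-coding genes only, DESeq2 size factors, upper-quartile scaling, scaling to library size alone, 2 other filters (none, or 1 CPM in 3 libraries) and leaving out each library. Added after seeing the data were counts divided by 2 and removal, per library, of a lowess trend with abundance (span 0.4). No library was a repeat of another: with counts divided by 2, chi-square per gene between replicates was 3.00 to 4.59.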

Additional observations from a re-analysis of the deposited data

How the results depend on the processing

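Mcl1 and Bcl2l11 stayed higher and Bcl2 lower, past the threshold, in all 17 alternatives. Against 4 members higher and 2 lower in the edgeR fit with TMM, library size only gave 5 lower and upper-quartile scaling 4 lower, and leaving out single libraries gave 4 to 5 higher and 1 to 3 lower. Library size only also left 3235 genes higher of all tested, against 5510. The log2 fold change of Bid reversed to -0.25 with library size only and the log2 fold change of Bid was -0.058, also reversed, with upper-quartile scaling. The log2 fold change of Bak1 reversed to 0.032 without PP replicate 3, and ran from -0.13 to 0.032 over single libraries left out. The cause of these shifts was not tested. Ordered by CPM without gene length, 3 of 10 members kept their place in PA/OA and 7 in PP, since longer genes collect more reads. Same-numbered libraries had correlations of 0.00517, 0.00304 and -0.0234 of their deviations from the group means. Not every library correlated best with its own number. Such values cannot show whether same-numbered libraries shared a culture or a day. With the replicate number as a block, 4 members were higher and 2 lower, and 5427 and 6088 of all genes. Of 204 counts over the other apoptosis lists under alternatives, 186 were within 1.5 times the count with TMM. Depth limits Bik alone among the members.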
